A study of Mus musculus with 8 samples.

Results

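The genes of glucose transport, glycolysis and pyruvate control were examined in the left ventricle of ANG II-infused mice. The set holds 34 genes, chosen by name from the deposited table, and these names matched 35 of its 55679 rows because 2 rows carry the name Aldoa. All 35 rows were among the 19364 rows that were tested. The samples were left ventricles of male wild-type C57BL/6J mice that carried an osmotic mini-pump under the skin for 7 days, filled with saline in the control group (4 libraries) or with angiotensin II in the ANG II group (4 libraries, 1500 ng/kg/min), a hormone that constricts blood vessels. No genetic change was carried by either group, no age was given, and the study speaks of biological replicates, more in each group than the libraries used here, without tying these libraries to single mice, so p-values measure the spread between these libraries. Expression was given as FPKM, the number of fragments per unit of transcript length and of library size, which lets levels be compared between genes. The libraries held 14455654 to 16564828 fragments.

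Glycolysis splits glucose into pyruvate in the cytosol. Pyruvate is then reduced to lactate by lactate dehydrogenase, or carried into the mitochondrion and turned into acetyl-CoA by the pyruvate dehydrogenase complex, which kinases (Pdk1 to Pdk4) switch off and phosphatases such as Pdp1 switch on. Many steps are served by isoforms from separate genes, one typical of adult heart or skeletal muscle and another found in the fetal heart or in most tissues. The fetal heart relies more on glucose and the adult heart more on fatty acids.

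Between ANG II and control, 25 of the 35 rows passed the test (adjusted p under 0.05, limma with Benjamini-Hochberg adjustment over all genes tested), against 33.3% of all genes tested. Of these, 16 rose, against 28.4% of all genes, and 9 fell, against 4.91%. A gene is termed called below when its log2 fold change was also beyond 0.5 in either direction. This held for 9 members, against 15.4% of all genes, with 8 called higher (14% of all genes) and 1 called lower (1.41%). The levels of the ANG II libraries did not overlap those of the controls at 22 rows, 14 higher and 8 lower, against 33.7% of all genes. The median log2 fold change of all genes tested was 0.15 on this scale.

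The rows were split by isoform class. Among the 9 rows of fetal or ubiquitous forms (Slc2a1, Hk1, Pfkl, Pfkp, Aldoc, Pgam1, Eno1, Ldha, Pfkfb3), 5 were called higher, 3 rose without reaching the fold threshold and 1 did not pass, with a median log2 fold change of 0.63. Among the 9 rows of adult muscle forms (Slc2a4, Hk2, Pfkm, both Aldoa rows, Pgam2, Eno3, Ldhb, Pfkfb2), 1 was called lower, 5 fell without reaching the threshold and 3 did not pass, with a median of -0.33. Aldoc, the brain form, stands in the first class as the partner of Aldoa. Aldoc and the second Aldoa row had 0 to 6 fragments a library. The pair of lactate dehydrogenases is classed by the heart: Ldhb prevails in adult heart, and Ldha, found in most tissues, also prevails in skeletal muscle. Without this pair, the medians were 0.68 and -0.32 over 8 rows each. The 17 genes with a single form, or without such a partner, had 3 called higher, 5 that rose, 3 that fell and 6 that did not pass, with a median of 0.03.

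**Figure D1:**
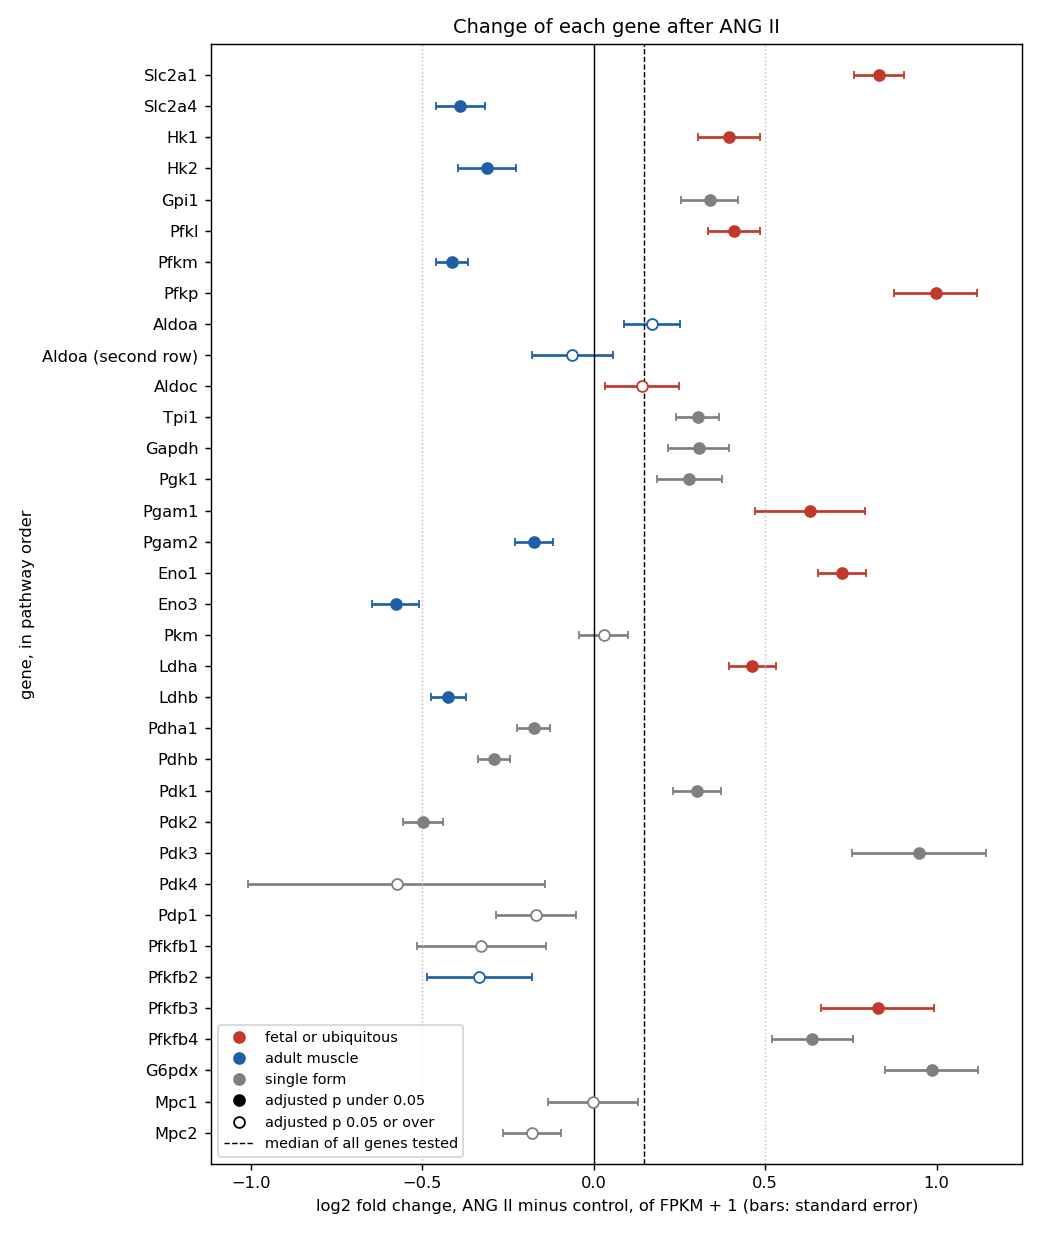
Log2 fold change of FPKM + 1 (ANG II minus control, horizontal axis) of the 35 rows in pathway order, with standard errors as bars, filled points for an adjusted p under 0.05 and dotted lines at the fold threshold. Red points (fetal or ubiquitous forms) lie to the right of 0, between 0.14 for Aldoc and 1.00 for Pfkp, and blue points (adult muscle forms) lie to the left except the main Aldoa row at 0.17 (-0.06 under median-of-ratios scaling).

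Promoters of the 2 called members with the highest log2 fold change and of the called member with the lowest are shown, by log2(FPKM + 1) as tested (RefSeq, GRCm38.p6; from 250 bases before to 50 bases after the start, 300 bases in all). With a pseudocount of 0.1, the highest 2 would be Pdk3 (log2 fold change 1.17) and G6pdx (1.11), ahead of Pfkp (1.01). Capitals mark ACGTG or CACGT, a form of the core of the hypoxia response element on either strand, termed the core below. The form with G as its first base (GCGTG or CACGC) was not searched. The Pfkp window is chr13:6648722-6649021 on the minus strand, the G6pdx window chrX:74428831-74429130 on the minus strand, and the Eno3 window chr11:70656926-70657225 on the plus strand.
Pfkp: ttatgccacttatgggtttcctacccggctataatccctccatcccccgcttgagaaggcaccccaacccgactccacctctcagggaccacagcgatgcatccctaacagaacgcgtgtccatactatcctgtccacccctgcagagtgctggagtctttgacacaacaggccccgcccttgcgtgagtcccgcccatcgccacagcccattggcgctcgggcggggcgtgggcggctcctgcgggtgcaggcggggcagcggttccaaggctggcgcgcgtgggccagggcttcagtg
G6pdx: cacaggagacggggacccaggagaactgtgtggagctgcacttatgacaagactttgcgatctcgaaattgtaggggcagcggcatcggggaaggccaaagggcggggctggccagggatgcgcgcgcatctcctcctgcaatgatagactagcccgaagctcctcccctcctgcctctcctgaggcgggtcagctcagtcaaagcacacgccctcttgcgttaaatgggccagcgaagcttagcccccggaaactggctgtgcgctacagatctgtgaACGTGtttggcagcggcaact
Eno3: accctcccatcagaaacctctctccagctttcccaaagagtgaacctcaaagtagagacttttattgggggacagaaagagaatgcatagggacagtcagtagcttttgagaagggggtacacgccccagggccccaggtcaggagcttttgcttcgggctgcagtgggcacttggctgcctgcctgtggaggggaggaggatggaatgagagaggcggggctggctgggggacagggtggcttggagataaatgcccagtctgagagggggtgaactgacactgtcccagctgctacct
These letters occurred once in the G6pdx window, 29 bases past the start, and not in the Pfkp or Eno3 window. A match describes the letters only, and its absence says only that they are not in this window.

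Promoters were matched for 32 of the 34 genes (not Slc2a4 and Pdp1). The core as searched (ACGTG or CACGT only) was present in 17 of the 32 members (53.1%), against 21.8% of 27025 genes with a promoter. Of the 12089 that could be matched by symbol to a gene tested here, 27.9% held it. By direction of change, 9 of 16 members that rose, 4 of 8 that fell and 4 of 8 that did not pass held it. A gene can have several windows, 1 for each annotated start, and a gene counts as a holder if any of its windows does. More than 1 window was listed for 13 of the 32 members (40.6%) and for 15.4% of all genes, which raises the share of members. Per window, the core was present in 21 of 52 member windows (40.4%), against 19.6% of 32851 windows. The full E-box CACGTG contains both ACGTG and CACGT. It was present in 5 members: Ldha, Pfkfb3, Pfkfb2, Pfkm and Pdk2. This is 15.6%, against 8.09% of all genes with a promoter and 11.1% of those matched to a gene tested. Per window, these shares were 9.62% and 7.15%. For each other member that passed the test and held the core, the stretch nearest to the start is given below, with up to 10 bases on either side, and the position of the first base of its core match is counted from 0 at the start. The stretches of Hk1 and Pfkfb3 lie at the downstream of their 2 listed starts. In the Ldha stretch, the leading TG is the end of a neighbouring E-box.
Slc2a1 (chr4:119108699-119108723, plus strand, -36): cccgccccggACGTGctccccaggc
Hk1 (chr10:62340400-62340424, minus strand, 7): cgcgctccttACGTGgggaACGTGc
Ldha (chr7:46845760-46845784, plus strand, -34): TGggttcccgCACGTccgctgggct
Gapdh (chr6:125165724-125165741, minus strand, 42): tttacgggtgCACGTagc
Pgk1 (chrX:106186959-106186983, plus strand, -131): atggaagtagCACGTctcactagtc
Pgam1 (chr19:41911747-41911771, plus strand, -114): ctccttgcttACGTGcgctccgtga
Pfkfb3 (chr2:11502128-11502153, minus strand, -53): cccttctctcCACGTGaaagggggct
Pdk3 (chrX:93832189-93832213, minus strand, -53): cgcgccgcgtACGTGcggcggcaga
Hk2 (chr6:82774492-82774516, minus strand, -52): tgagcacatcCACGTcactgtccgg
Pfkm (chr15:98092595-98092619, plus strand, 16): ccagaaagatCACGTtagggtatac
Pdhb (chr14:8173226-8173242, minus strand, -248): ctCACGTcacctctgct
Pdk2 (chr11:95041482-95041507, minus strand, -126): cgaggagagcCACGTGtcgaagcgca
Rising and falling genes thus stood side by side among the holders of these letters, as did both genes of the hexokinase pair.

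Glucose enters the cardiomyocyte through Slc2a4 (GLUT4), the insulin-responsive carrier of adult muscle, and through Slc2a1 (GLUT1), the basal carrier of most tissues and of the fetal heart. Slc2a1 (ENSMUSG00000028645, chr4:119108711-119137983, GRCm38) was at 7.76, 7.82, 7.56 and 8.73 FPKM in the 4 control libraries and at 15.7, 14.8, 15.7 and 13.7 FPKM in the 4 ANG II libraries. Every ANG II library stood above every control, with means of 7.97 ± 0.519 and 15.0 ± 0.926 FPKM (SD, n = 4 each), and Slc2a1 was called higher (log2 fold change 0.83 ± 0.07, SE; limma adjusted p = 4.22e-05). Slc2a4 (ENSMUSG00000018566, chr11:69942539-69948188) was at 212, 207, 213 and 225 FPKM in control and at 141, 164, 173 and 176 FPKM in ANG II. It fell by 23.5% without overlap (log2 fold change -0.39, limma adjusted p = 0.00237). Slc2a4 remained the more abundant carrier by far. The share of Slc2a1 in the summed FPKM of both carriers went from 3.59 ± 0.135% to 8.45 ± 1.17% (SD, n = 4 each). The sum itself was lower in ANG II, at 179 ± 15.5 FPKM against 222 ± 8.01 FPKM in control, and the groups did not overlap.

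Hexokinase traps glucose as glucose 6-phosphate, with Hk1 as the widely expressed form and Hk2 as the insulin-responsive form of adult muscle. Hk1 was at 126, 142, 125 and 132 FPKM in control and at 171, 203, 146 and 173 FPKM in ANG II. It rose with no overlap, though ANG II replicate 3 came within a few units of the highest control (log2 fold change 0.39, limma adjusted p = 0.00774). Hk2 was at 148, 128, 159 and 156 FPKM in control and at 112, 128, 107 and 128 FPKM in ANG II, and it fell (log2 fold change -0.31, limma adjusted p = 0.0174). The low control (replicate 2) met the upper ANG II libraries, so that the groups overlapped, and the adjusted p of Hk2 was 0.0544, 0.0548 and 0.0568 without control replicate 3, control replicate 4 or ANG II replicate 1. The order of the 2 forms turned. Hk1 made up 47.1 ± 3.73% of their summed FPKM in control, below Hk2 in 3 of the 4 libraries, and 59.3 ± 1.89% in ANG II, above Hk2 in all 4. The sum was 279 ± 8.29 FPKM in the controls and 292 ± 32.8 FPKM in ANG II, within the spread of the libraries.

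Gpi1, the isomerase that makes fructose 6-phosphate, rose from 374 ± 8.66 to 475 ± 60.4 FPKM (SD, n = 4 each; log2 fold change 0.34, limma adjusted p = 0.0108). Its ANG II libraries ranged from 407 to 554 FPKM, above all controls.

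Phosphofructokinase, the committed step of glycolysis, is built from subunits encoded by Pfkm (muscle), Pfkl (liver) and Pfkp (platelet). Pfkp (ENSMUSG00000021196, chr13:6579768-6648777) was at 46.1, 46.3, 43.1 and 40.4 FPKM in control and at 101, 105, 68.6 and 84.9 FPKM in ANG II. It rose 2.04-fold (log2 fold change 1.00 ± 0.12, SE; limma adjusted p = 0.000238), and the lowest ANG II library, replicate 3, was still above all controls. Pfkl rose from 94.1 ± 2.28 to 126 ± 14.2 FPKM (log2 fold change 0.41, limma adjusted p = 0.0027). Pfkm (ENSMUSG00000033065, chr15:98092589-98132451) was at 434, 456, 449 and 457 FPKM in control and at 323, 350, 329 and 347 FPKM in ANG II, and it fell by 24.9% without overlap (log2 fold change -0.41, limma adjusted p = 0.000167). The summed FPKM of the 3 genes was 587 ± 8.64 in control and 553 ± 37.6 in ANG II, and these values overlapped. Within that sum, Pfkm went from 76.5 ± 0.832% to 61.1 ± 3.27%, Pfkl from 16 ± 0.52% to 22.7 ± 1.15% and Pfkp from 7.49 ± 0.522% to 16.2 ± 2.12% (SD, n = 4 each), each without overlap.

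The Pfkfb genes encode the enzymes that make and remove fructose 2,6-bisphosphate, the strongest activator of phosphofructokinase. Pfkfb2, the heart form, was the most abundant of the 4. It was at 34.8, 23.7, 32.6 and 31.0 FPKM in control and at 21.5, 22.4, 20.4 and 32.4 FPKM in ANG II, and it did not pass the test (log2 fold change -0.33 ± 0.15, SE; limma adjusted p = 0.126). ANG II replicate 4 stood with the controls, and without it the log2 fold change was -0.48 with an adjusted p of 0.0205. Without control replicate 2, the low control, the adjusted p was 0.0478. Pfkfb3, the inducible form with the highest kinase activity, was at 6.45, 4.15, 5.11 and 7.07 FPKM in control and at 12.1, 8.14, 10.6 and 12.5 FPKM in ANG II. It was called higher with no overlap (log2 fold change 0.83 ± 0.16, SE; limma adjusted p = 0.00379). Pfkfb4 was also called higher, from 3.12 ± 0.483 to 5.39 ± 0.638 FPKM (log2 fold change 0.64, adjusted p = 0.00266 by limma). Pfkfb1, the liver form, was at 2.92 to 4.71 FPKM in control and at 2.03 to 4.20 FPKM in ANG II and did not pass (limma adjusted p = 0.215). The sum of the 4 genes was 43.2 ± 5.09 FPKM in the controls and 43.3 ± 6.81 FPKM in ANG II, while the share of Pfkfb3 in it went from 13.1 ± 1.90% to 25.0 ± 2.96%.

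Aldolase was the step at which no isoform change was found. The main Aldoa row (ENSMUSG00000030695), the muscle and red cell form, was at 1232 to 1343 FPKM in control and at 1261 to 1654 FPKM in ANG II, and it did not pass (log2 fold change 0.17 ± 0.08, SE; limma adjusted p = 0.142). ANG II replicate 3 was its lowest treated library, and without it the log2 fold change was 0.24 with an adjusted p of 0.0233. The other row named Aldoa (ENSMUSG00000114515), a neighbouring gene model upstream on the same strand, was at 0.0859 to 0.488 FPKM in all libraries, which is 1 to 6 fragments. Aldoc, the brain form, had 0 to 6 fragments a library, and at this depth no difference was detectable (limma adjusted p = 0.363).

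The middle of the pathway is served by genes of high level and single form. Tpi1, which interconverts the triose phosphates, rose from 594 ± 21 to 734 ± 56.5 FPKM (log2 fold change 0.30, limma adjusted p = 0.00508). Gapdh, which oxidizes glyceraldehyde 3-phosphate and is often taken as a reference gene, had the highest FPKM of all members. It was at 2546, 2353, 2706 and 2620 FPKM in control and at 3209, 3639, 2848 and 2981 FPKM in ANG II. It rose 1.24-fold (log2 fold change 0.31 ± 0.09, SE; limma adjusted p = 0.025), and no ANG II library was as low as a control. It did not pass in 4 of the 8 fits with 1 library left out (without control replicate 1, 2 or 4 or ANG II replicate 1, log2 fold change 0.27 to 0.32 and limma adjusted p 0.0558 to 0.0762), nor under any of the other scalings given below. Pgk1, which makes the first ATP of the pathway, was at 244 to 272 FPKM in control and at 271 to 367 FPKM in ANG II. It rose with overlap (log2 fold change 0.28, limma adjusted p = 0.0463), and its adjusted p was 0.0567 to 0.123 in the fits without any one control or without ANG II replicate 1 or 2. As much as 53.9% of the 50-base words of Pgk1 also occur in other genes, mostly in the retrogene Pgk1-rs7, which itself was listed at 0.0526 to 0.20 FPKM.

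**Figure D2:**
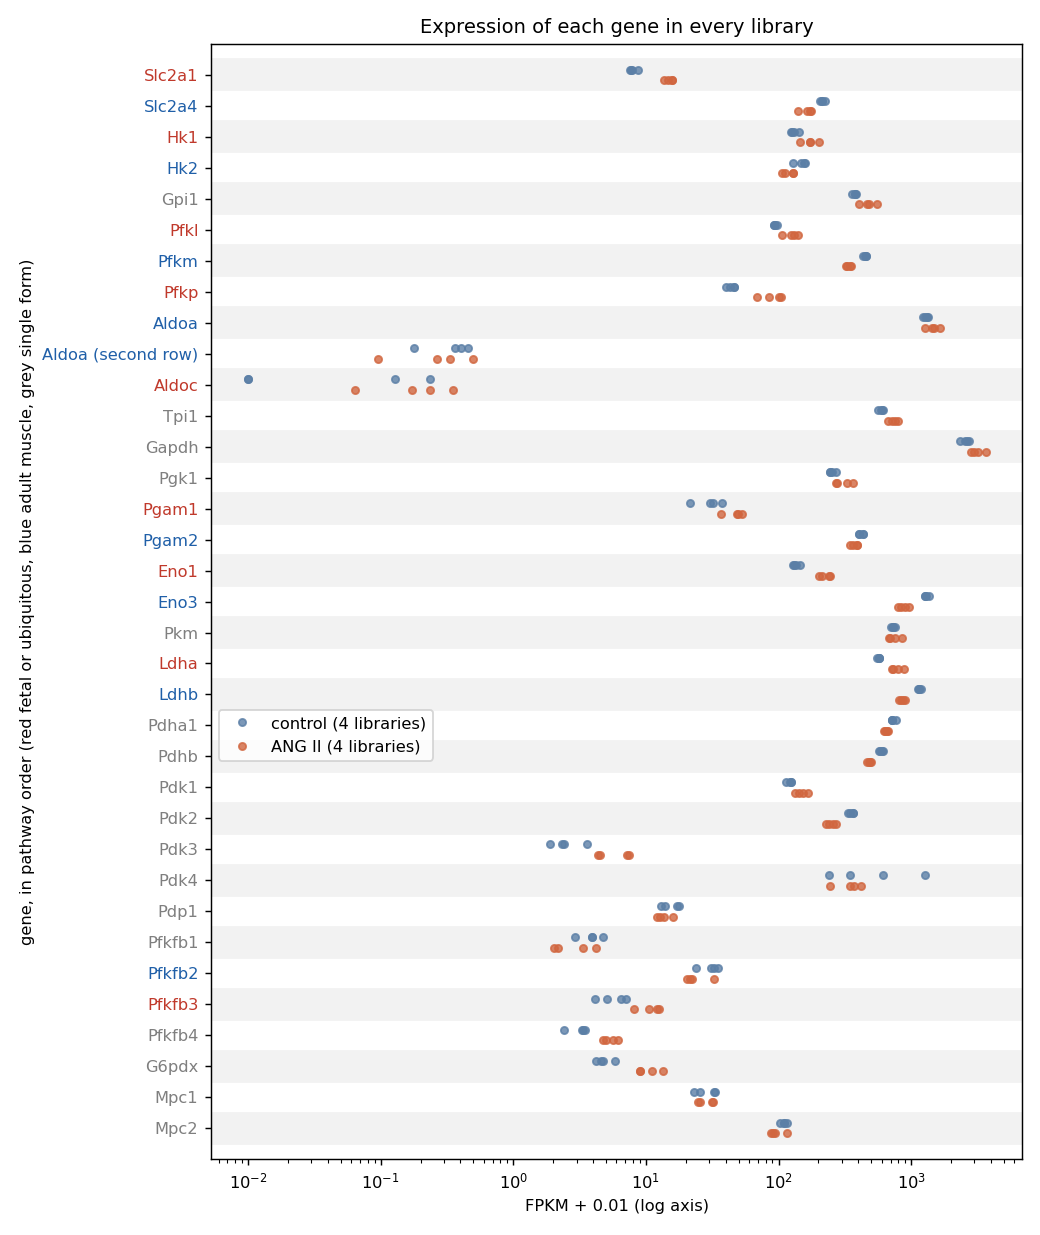
FPKM + 0.01 (log axis) of the 35 rows in each of the 4 control (blue) and 4 ANG II (orange) libraries, in pathway order, with gene names in red for fetal or ubiquitous, blue for adult muscle and grey for single forms. Levels run from 0 FPKM for Aldoc in 2 controls to 3639 FPKM for Gapdh, and the 4 controls of Pdk4 are spread over 239 to 1268 FPKM.

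Phosphoglycerate mutase has a ubiquitous form, Pgam1, and a muscle form, Pgam2. Pgam1 was at 31.9, 21.5, 37.4 and 30.2 FPKM in control and at 53.1, 49.1, 36.9 and 48.8 FPKM in ANG II, and it was called higher although ANG II replicate 3 lay just under the highest control (log2 fold change 0.63 ± 0.16, SE; limma adjusted p = 0.013). Without control replicate 2, its lowest control, the log2 fold change was 0.48, under the fold threshold. Pgam1 shares 36.2% of its 50-base words with the pseudogene Pgam1-ps2, which was listed at 0.171 to 0.738 FPKM. Pgam2 fell from 420 ± 18.3 to 373 ± 20.9 FPKM (log2 fold change -0.17, limma adjusted p = 0.0362). Its adjusted p was 0.0684 to 0.0977 without control replicate 3 or 4 or ANG II replicate 3 or 4. The share of Pgam1 in both was 6.68 ± 1.23% in control and 11.2 ± 1.10% in ANG II, without overlap.

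Among the ANG II libraries, enolase was the pair whose ratio varied least (SD of the log2 ratio 0.05). Eno3 (ENSMUSG00000060600, chr11:70657202-70662513), the beta form of adult muscle, was at 1272, 1294, 1362 and 1282 FPKM in control and at 897, 969, 838 and 792 FPKM in ANG II. It was the only member called lower (log2 fold change -0.58 ± 0.07, SE; limma adjusted p = 0.000221). Eno1 (ENSMUSG00000063524, chr4:150236721-150248879), the alpha form of embryonic and most adult tissues, was at 144, 132, 136 and 129 FPKM in control and at 241, 243, 211 and 202 FPKM in ANG II. It was called higher (log2 fold change 0.72 ± 0.07, SE; limma adjusted p = 7.27e-05). The share of Eno1 thus went from 9.41 ± 0.514% to 20.4 ± 0.53%, and the 4 ANG II libraries lay within 20.0 to 21.2%. Summed enolase was lower in ANG II (1099 ± 96.0 FPKM) than in control (1438 ± 41.3 FPKM), with no overlap. Eno1 shares 25.3% of its words with the retrogene Eno1b, which was listed at no more than 0.248 FPKM.

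Pkm, pyruvate kinase, did not pass the test. It was at 709 to 749 FPKM in control and at 680 to 847 FPKM in ANG II (log2 fold change 0.03 ± 0.07, SE; limma adjusted p = 0.794), and its sign turned under each of the other scalings and without ANG II replicate 2. The table gives 1 value per gene, so the M1 and M2 splice forms of Pkm were not analysed here.

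Lactate dehydrogenase is a tetramer of Ldhb, the subunit that prevails in adult heart, and Ldha, which prevails in skeletal muscle and occurs in most tissues. Ldha (ENSMUSG00000063229, chr7:46841475-46855627) was at 575, 567, 569 and 551 FPKM in control and at 794, 884, 719 and 731 FPKM in ANG II. It rose by 38.3% without overlap (log2 fold change 0.46 ± 0.07, SE; limma adjusted p = 0.000735). Ldhb (ENSMUSG00000030246, chr6:142490249-142507957) was at 1154, 1118, 1177 and 1144 FPKM in control and at 809, 875, 844 and 896 FPKM in ANG II, and it fell by 25.4% (log2 fold change -0.42 ± 0.05, SE; limma adjusted p = 0.000263). Their sum was 1714 ± 28.3 FPKM in the controls and 1638 ± 84.7 FPKM in ANG II, within the spread, whereas the Ldha share moved from 33.0 ± 0.56% to 47.7 ± 2.61%. In ANG II replicate 2, Ldha exceeded Ldhb. Of the 50-base words of Ldhb, 21% also occur in Gm5514, which was listed at 2.57 to 5.81 FPKM.

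Counted over 9 isoform pairs, the log2 ratio of the fetal or ubiquitous to the adult form was higher in ANG II for 8 pairs, with no overlap between the groups. For these 8 pairs, the ratio is taken within a library and does not depend on a scaling factor of the library. The log2 ratio changed by 1.43 for Pfkp over Pfkm, 1.31 for Eno1 over Eno3, 1.30 for Slc2a1 over Slc2a4, 1.29 for Pfkfb3 over Pfkfb2, 0.89 for Ldha over Ldhb, 0.83 for Pfkl over Pfkm, 0.82 for Pgam1 over Pgam2 and 0.71 for Hk1 over Hk2. Each had a p of 0.0286 in the exact two-sided permutation test over 70 allocations, the smallest that 4 against 4 can give, and an adjusted p of 0.0321 over the 9 pairs. Pfkl and Pfkp share Pfkm as their partner, so these ratios are not independent. For Aldoc over Aldoa no change of the ratio is given: Aldoc was at 0 in 2 controls, its share was 0.0067 ± 0.00848% in control and 0.0141 ± 0.01% in ANG II, and the groups overlapped. Every one of the 8 kept its sign when any 1 library was left out, and their values then ranged from 0.65 for Hk1 over Hk2 to 1.54 for Pfkp over Pfkm.

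**Figure D3:**
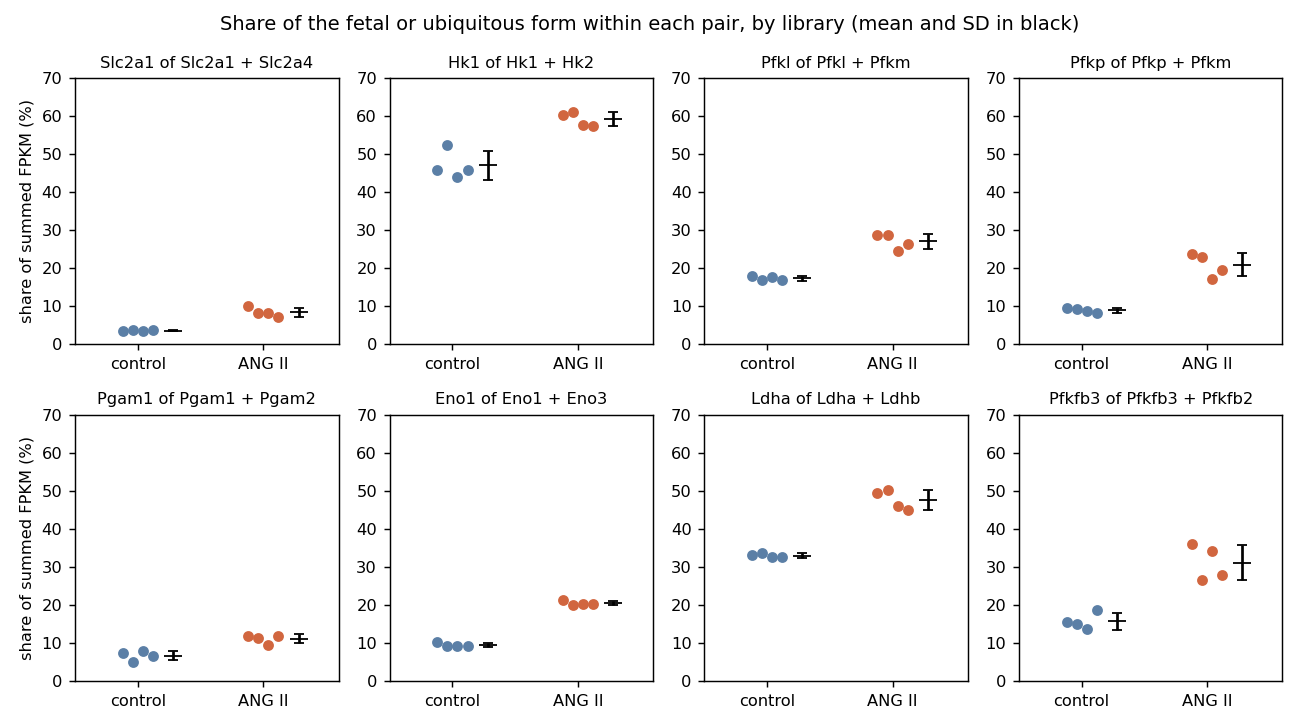
Share (%) of the fetal or ubiquitous form in the summed FPKM of each of 8 pairs, for the 4 control (blue) and 4 ANG II (orange) libraries, with mean and SD in black. In all 8 panels the ANG II libraries sit above every control, from the carriers (3.59% to 8.45%) to the hexokinases (47.1% to 59.3%).

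At the entry of pyruvate into the mitochondrion, the 2 subunits of the pyruvate carrier did not pass the test. Mpc1 averaged 28.7 ± 5.18 FPKM in the controls and 28.5 ± 3.77 FPKM in ANG II, with SD over n = 4 libraries each (limma adjusted p = 0.995). Mpc2 was at 109 ± 5.53 and 97.0 ± 12.7 FPKM (log2 fold change -0.18, limma adjusted p = 0.134). ANG II replicate 3 was its highest library of all, at 116 FPKM, and without it the log2 fold change of Mpc2 was -0.27 with an adjusted p of 0.00718.

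Both subunit genes of the E1 enzyme of pyruvate dehydrogenase fell. Pdha1 was at 719, 722, 764 and 719 FPKM in control and at 621, 659, 637 and 671 FPKM in ANG II (log2 fold change -0.18, limma adjusted p = 0.0203). Pdhb was at 599, 573, 616 and 579 FPKM in control and at 491, 494, 481 and 469 FPKM in ANG II (log2 fold change -0.29, limma adjusted p = 0.0011). Neither gene overlapped between the groups, though the adjusted p of Pdha1 was 0.0616 without control replicate 3 and 0.057 without ANG II replicate 1. Exons of Map3k15 on the opposite strand cover 16.2% of the exon bases of Pdha1. The use of strand in the counting is not given in the sources used here. This opposite-strand share was 23% for Mpc1 and 11.5% for Gpi1. Same-strand exons of other genes cover 17.4% of Pfkfb2, 15.3% of Pkm and 10.2% of Pfkm. Of the 50-base words, 26.3% of those of Mpc1, 25.8% of Pkm and 25.1% of Gapdh also occur in other genes.

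The kinases of pyruvate dehydrogenase moved apart from each other. Pdk2, a major kinase of the heart, was at 336, 343, 363 and 361 FPKM in control and at 229, 256, 242 and 269 FPKM in ANG II, and it fell by 29.1% (log2 fold change -0.50 ± 0.06, SE; limma adjusted p = 0.00021). Its fold change lay just inside the fold threshold and passed it in 4 of the 8 fits with 1 library left out. Pdk1 rose from 121 ± 5.01 to 150 ± 14.5 FPKM (log2 fold change 0.30, limma adjusted p = 0.00835). Pdk3 was at 2.40, 3.56, 2.33 and 1.89 FPKM in control and at 7.24, 7.49, 4.33 and 4.52 FPKM in ANG II. It was called higher without overlap (log2 fold change 0.95 ± 0.20, SE; limma adjusted p = 0.00456), from 30 to 54 fragments a library in control and 68 to 124 in ANG II.

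Pdk4, the kinase induced by fasting and fatty acids, varied widely among the controls. It was at 239, 1268, 348 and 609 FPKM in control and at 420, 243, 346 and 368 FPKM in ANG II. All 4 ANG II libraries lay within the range of the controls (log2 fold change -0.58 ± 0.43, SE; limma adjusted p = 0.347). With single libraries left out, the log2 fold change ranged from -0.93 (without control replicate 1) to -0.13 (without control replicate 2). It passed in none of these fits. As Pdk4 took between 34.1 and 73.4% of the summed kinase FPKM in the controls, the sum of all 4 kinases overlapped between the groups. Without Pdk4, the sum was 475 ± 15.5 FPKM in the controls and 404 ± 28.7 FPKM in ANG II, and within it the share of Pdk1 went from 25.5 ± 0.864% to 37.0 ± 1.65% and that of Pdk2 from 74.0 ± 0.822% to 61.6 ± 2.02%, each without overlap. Pdp1, the catalytic phosphatase subunit, was at 13.0 to 17.8 FPKM in the controls and 12.1 to 15.9 FPKM in ANG II and did not pass (limma adjusted p = 0.30).

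**Figure D4:**
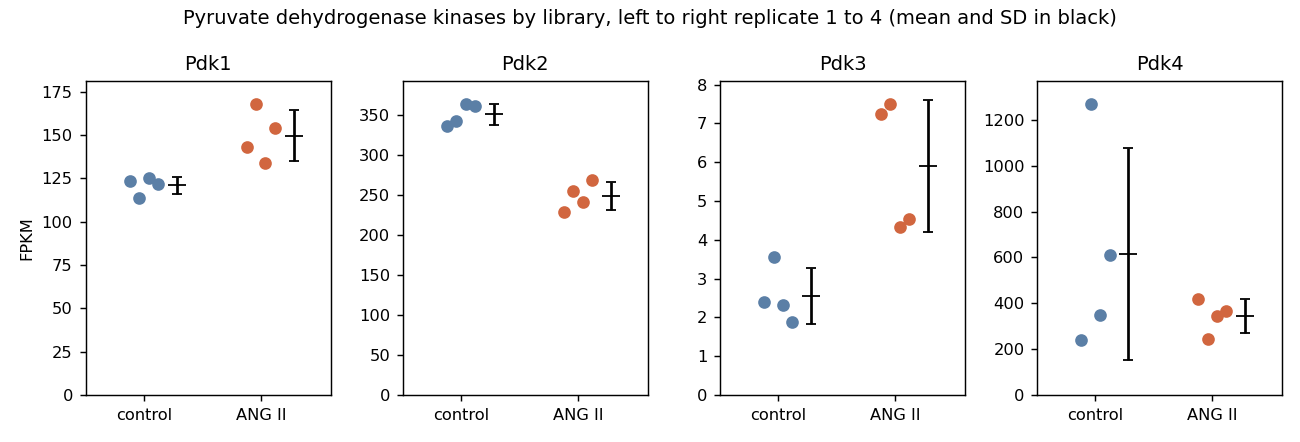
FPKM of Pdk1, Pdk2, Pdk3 and Pdk4 (each on its own axis from 0) in the 4 control (blue) and 4 ANG II (orange) libraries, with mean and SD in black. Pdk1 and Pdk3 are higher and Pdk2 lower in every ANG II library, while Pdk4 spans 239 to 1268 FPKM in the controls and 243 to 420 FPKM in ANG II.

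G6pdx, which draws glucose 6-phosphate into the pentose phosphate pathway and yields NADPH, was among the members of largest rise. G6pdx (ENSMUSG00000031400, chrX:74409483-74429194) was at 4.73, 5.88, 4.56 and 4.21 FPKM in control and at 11.1, 9.07, 13.4 and 9.01 FPKM in ANG II. It rose 2.2-fold with no overlap (log2 fold change 0.98 ± 0.14, SE; limma adjusted p = 0.00049). Exons of Ikbkg on the opposite strand cover 13.6% of its exon bases.

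The summed FPKM of the 35 rows was 13098 ± 296 in control and 13141 ± 936 in ANG II, and the groups overlapped. Among the 16 members that rose, ANG II replicate 2 was the highest ANG II library at 11 and ANG II replicate 3 the lowest at 10. Mitochondrially encoded genes took 21.8% of the fragments of ANG II replicate 3, 19.2 to 19.5% of the other ANG II libraries and 26.3 to 27.0% of the controls. The part of this share in the members' levels was not tested beyond the scalings that follow.

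How FPKM were scaled mattered, since each other scaling lowered the log2 fold changes of the members that passed. Under a median-of-ratios scaling, Gapdh went from 0.31 to 0.08 and Pgam1 from 0.63 to 0.41. This scaling brings the median of all genes to about 0, and 5 members were called higher and 8 lower. Quantile normalization gave 6 higher and 7 lower, and a total without mitochondrial and the top 10 genes gave 7 higher and 5 lower, against 8 and 1 on the deposited values. Over all genes, the calls were 2708 higher and 273 lower as deposited, 1671 and 806 by median of ratios, 1413 and 986 by quantiles, and 1974 and 548 for the total without mitochondrial and the top 10 genes. Each of the 25 members that passed kept its direction under all 3. The adult forms Slc2a4, Pfkm and Ldhb and the kinase Pdk2 were called lower under all 3 as well as Eno3, and Slc2a1, Pfkp, Pfkfb3, Pdk3 and G6pdx were called higher under all 3. Hk1, Gpi1, Gapdh, Pgk1 and Pdk1 no longer passed under any of the 3. Pfkl and Pgam1 did not pass under 2 of them (median-of-ratios and quantile), Tpi1 did not pass under median-of-ratios scaling and the reduced total, and Pfkfb4 did not pass under quantile normalization. Of the 8 members called higher, 3 lost the call by size or by p. Pgam1 was called under none of the 3 (log2 fold change 0.41 to 0.49), Eno1 was under the fold threshold by median-of-ratios scaling (0.495), and Pfkfb4 kept its call for the reduced total (0.52) but not by median-of-ratios scaling (0.45) or quantile normalization (0.33). Mpc2 and Pfkfb2, which did not pass on the deposited values, passed as lower under all 3, as did Pdp1 under 2 of them and Pfkfb1 under quantile normalization.

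**Figure D5:**
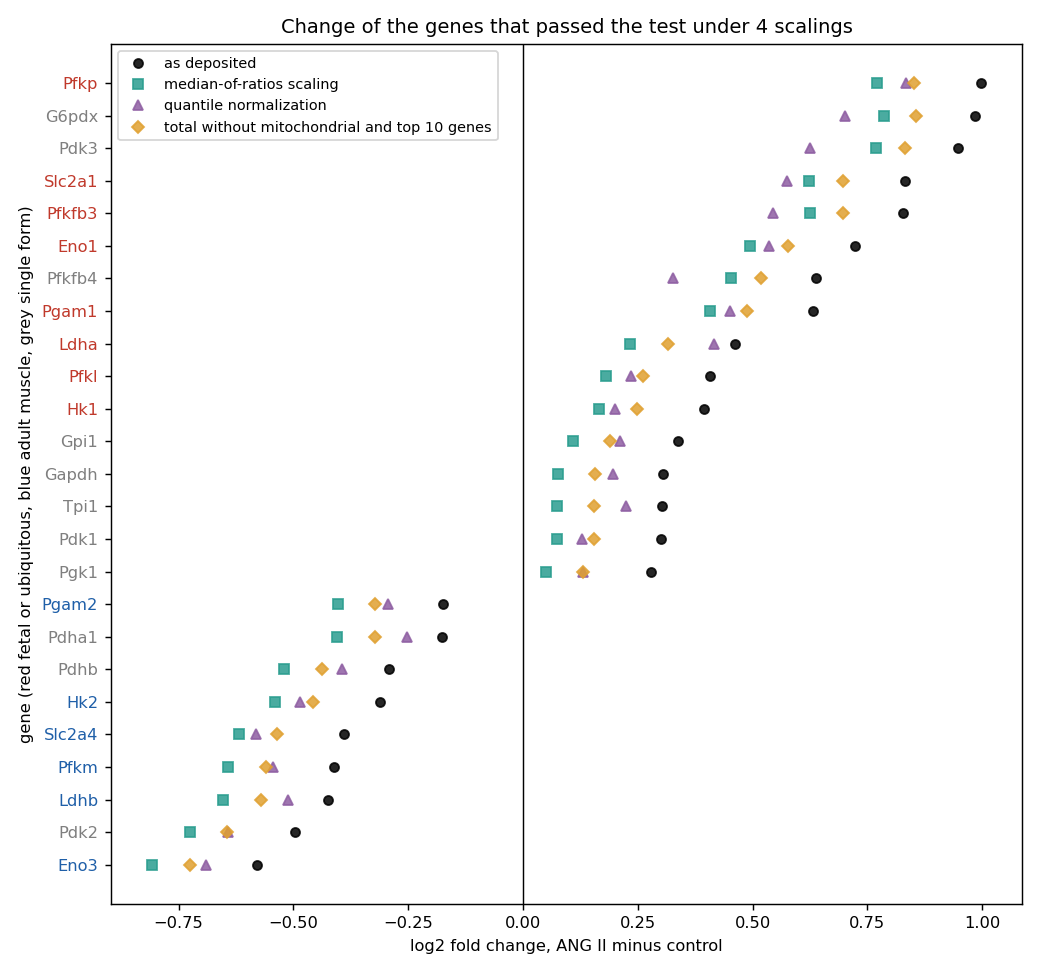
Log2 fold change (ANG II minus control) of the 25 rows that passed the test, on the deposited values (circles) and under 3 other scalings (squares, triangles, diamonds). Every row keeps its side of 0, and the other scalings move all rows to the left, so Pgk1 goes from 0.28 to 0.05 and Eno3 from -0.58 to -0.81 under median-of-ratios scaling.

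Whole ventricle holds several cell types, and fewer cells of a type cannot be told apart from less RNA per cell. All 10 cardiomyocyte markers were detected, with a summed level of 50340 to 51320 FPKM in the controls and 38430 to 41400 FPKM in ANG II, and 6 of the 10 fell (8 under median-of-ratios scaling and under a total without mitochondrial and top 10 genes, 3 under quantile normalization). All 10 fibroblast markers were called higher (summed 668 to 968 FPKM in the controls and 3731 to 4570 FPKM in ANG II), as were all 10 macrophage and leukocyte markers (260 to 337 and 594 to 826 FPKM) and all 6 erythroid markers (96.8 to 487 and 582 to 2089 FPKM). Of 9 endothelial markers, 2 were called higher (497 to 535 and 549 to 626 FPKM). Of 8 smooth muscle and pericyte markers, 3 were called higher and 1 lower (536 to 616 and 588 to 650 FPKM). Under the 3 other scalings, 8 to 10 fibroblast, 9 macrophage and leukocyte, 5 to 6 erythroid, 1 smooth muscle and pericyte and 0 endothelial markers were called higher. Proliferation markers were called higher at 7 of 8 (11.7 to 23.7 and 36.0 to 82.2 FPKM), and at 7 under each other scaling. The remaining marker, Cenpf, went from a mean of 8.85 to 6.02 FPKM and did not pass (log2 fold change -0.45). It was called lower under median-of-ratios scaling (-0.65) and quantile normalization (-0.75). The fetal or ubiquitous forms are also expressed by non-muscle cells, and the part of these cells in the isoform shares was not tested. Markers of atrium (2 of 4 tested called higher, 6.70 to 55.2 and 61.0 to 241 FPKM), adipocytes (1 of 6, 159 to 214 and 217 to 284 FPKM) and immediate early genes (2 of 8, 71.5 to 85.1 and 106 to 162 FPKM) were read in the same way. Under the 3 other scalings, 0 to 1 atrial, 0 adipocyte and 1 to 2 immediate early genes were called higher. Of 10 skeletal muscle genes, 6 were tested and 2 called higher (summed 984 to 1456 and 1010 to 1970 FPKM), and the defining myosin Myh4 was at 0 in every library.

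Genes next to the members were read from lists of related steps, in which 89 of 93 genes were tested. Of these, 50 passed, 17 were called higher and 9 lower, against 33.3%, 14% and 1.41% of all genes tested. The counts of each list below are to be read against the same shares. Mean FPKM are given from control to ANG II. Among the 14 that were tested of 17 other glycolytic genes, 6 were called higher (1 to 5 under the 3 other scalings) and 3 lower (3 under each). They included the neuronal glucose carrier Slc2a3 (from 1.19 to 3.12 FPKM, log2 fold change 0.91) and the leukocyte hexokinase Hk3 (from 0.96 to 2.34 FPKM, 0.76). Among 8 genes of the pyruvate dehydrogenase complex and its regulators, 1 was called lower, the phosphatase Pdp2 (from 5.28 to 3.20 FPKM, log2 fold change -0.59), and 3 fell without reaching the threshold (Dlat, Dld and Pdhx). In lactate transport, 2 of 6 were called higher and 1 lower. Slc16a3 (MCT4), the lactate exporter of glycolytic cells, was at 1.25, 1.15, 0.898 and 1.44 FPKM in control and at 9.13, 7.22, 8.39 and 6.88 FPKM in ANG II (log2 fold change 2.03 ± 0.12, SE). The monocarboxylate carrier chaperone Emb went from 0.888 to 3.07 FPKM (log2 fold change 1.11), and the D-lactate dehydrogenase Ldhd from 13.0 to 8.10 FPKM (log2 fold change -0.63). The main cardiac lactate carrier Slc16a1 fell without reaching the threshold.

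In the pentose phosphate pathway, which G6pdx opens, 2 of 10 genes were called higher and 4 rose without reaching the threshold. Under each of the 3 other scalings, 3 genes of this list passed the test as higher and 1 to 2 as lower. The called genes were Pgd, the other NADPH-yielding dehydrogenase (from 19.1 to 31.6 FPKM, log2 fold change 0.69), and the transketolase Tkt (from 13.3 to 20.7 FPKM, 0.60). Of 20 glycogen genes, 2 were called higher and 2 lower. The catalytic subunit of muscle phosphorylase kinase, Phkg1, went from 16.8 to 6.96 FPKM (log2 fold change -1.19), the liver phosphorylase Pygl from 2.76 to 5.83 FPKM (0.86), and the glycogen-binding Stbd1 from 8.09 to 15.6 FPKM (0.86). Of 9 hexosamine and polyol genes, 2 were called higher, the aldo-keto reductase Akr1b8 (from 2.23 to 8.09 FPKM, log2 fold change 1.50) and Pgm3 (from 2.14 to 3.53 FPKM, 0.54). Of 22 regulators of glucose use, 3 were called higher and 2 lower. They included Ppargc1a, a coactivator of mitochondrial genes (from 72.1 to 37.3 FPKM, log2 fold change -0.90), Myc (from 2.25 to 4.87 FPKM, 0.84) and the GLUT4 traffic regulator Tbc1d1 (from 6.37 to 10.1 FPKM, 0.60). Hif1a, which encodes a subunit of the hypoxia-inducible factor, was also called higher (from 33.7 to 50.5 FPKM, log2 fold change 0.57, limma adjusted p = 0.000603). Whether Hif1a had a part in the members' levels, or bound their promoters, was not tested. Under the 3 other scalings the log2 fold changes of Hif1a (0.35 to 0.43), Tkt (0.36 to 0.46) and Tbc1d1 (0.33 to 0.47) still passed the test but not the fold threshold, Pgd lay under the threshold in 2 of them (0.47 and 0.48), Pgm3 did not pass in any (0.22 to 0.43), and Hk3 did not pass under quantile normalization (0.51, limma adjusted p = 0.083).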

How the data were processed

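RNA-seq was carried out on the left ventricles described above, with 4 control and 4 ANG II libraries grouped by their treatment labels. The authors deposited 1 table of FPKM values with a column for each library, after enriching messenger RNA on oligo(dT) beads. The submitters' processing notes name HISAT, Bowtie2 and RSEM, without roles or versions. The genome build, annotation and use of strand are not given in the sources used here. With transcript lengths averaged per gene from GENCODE M21 (GRCm38), low FPKM values came out as whole fragment numbers (99.1 to 99.2% of single-exon genes within 0.02 of a whole number, under 60 fragments, and 96.6 to 96.8% of the others), which gave the fragments per library. Intervals were not computed, and fragment numbers carry counting error only.

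The deposited values were tested with limma 3.58.1 in R 4.3.3 (lmFit and trended eBayes) on log2(FPKM + 1), for genes averaging 0.1 FPKM or more. The study names limma with an adjusted p under 0.05 and a fold threshold of 0.5, whose log base (2) was a choice here, as were the pseudocount and filter. Fold changes on this scale understate the change of low genes. Two-sided p-values received the Benjamini-Hochberg adjustment across the genes tested. Isoform ratios were compared within libraries by an exact two-sided permutation test (scipy 1.17.1). A script was tested on simulated data before use. Related lists and marker lists were counted, with no set test. The members and lists were chosen with earlier results of these data known. The text names all members and, of each related list, up to 3 called genes of largest absolute log2 fold change, of which 1 is not reported here. Hif1a, Slc16a1, Dlat, Dld, Pdhx, Cenpf, the copies of members, and the short stretches around motifs were chosen after their values were seen. Shared sequence was counted as 50-base words of GENCODE M21 transcripts found in other genes, on either strand. Alternatives changed the pseudocount (0.1), the minimum mean (0 or 1 FPKM), the scaling, the variance trend, the fold threshold, the replicate number as a block, voom on the recovered fragments, and each library left out in turn.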

Additional observations from a re-analysis of the deposited data

Results flagged for a closer look

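Within groups of 4 libraries, a value was singled out when its gap to the nearest other library, as a part of the whole range of the group, was above Dixon's 95% critical value. Chance gives this in about 1 in 20 groups, and it was met in 4 of 88. Pdha1 was at 763.9 FPKM in control replicate 3 and at 719 to 722 FPKM in the other controls. Pfkfb2 was at 32.4 FPKM in ANG II replicate 4 and at 20.4 to 22.4 FPKM in the other ANG II libraries. Pfkfb4 was at 2.40 FPKM in control replicate 1 and at 3.31 to 3.44 FPKM in the other controls. The Eno1 share of both enolases was 10.2% in control replicate 1 and 9.09 to 9.25% in the other controls.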

How the results depend on the processing

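Of the 25 members past an adjusted p of 0.05, all kept their direction under every alternative run, and 13 kept their side of the threshold under each. The other 12 lost it in 51 of their fits: Hk1, Hk2, Gpi1, Pfkl, Tpi1, Gapdh, Pgk1, Pgam1, Pgam2, Pdha1, Pdk1 and Pfkfb4. With no fold threshold, 6447 genes, 25 members and 50 related genes were called, and with a threshold of 1 these were 795, 0 and 4, against 2981, 9 and 26. The 0 members beyond 1 are from all 8 libraries on log2(FPKM + 1). Pdk3, G6pdx and Pfkp were beyond 1 with an adjusted p under 0.05 at a pseudocount of 0.1 (1.17, 1.11 and 1.01) and by voom (1.20, 1.12 and 1.01), and 1 to 3 of them were so without control replicate 1 or 2 or ANG II replicate 2, 3 or 4 (1.02 to 1.12). Members called higher numbered 5 under median-of-ratios scaling, and members called lower 8 under that scaling, 7 under quantile normalization and 5 for the reduced total, with 1 to 2 when single libraries were left out (2 without control replicate 1 or 2 or ANG II replicate 2 or 4, by the addition of Pdk2). Called higher were 7 without control replicate 2 and 9 without ANG II replicate 3. The log2 ratio change of Eno1 over Eno3 was 1.23 under quantile normalization. Signs turned at 4 rows that had not passed. Aldoa was at -0.0598 under median-of-ratios scaling, and Pkm at -0.20, -0.0404 and -0.12 under median-of-ratios scaling, quantile normalization and the reduced total. Leaving out 1 library gave -0.0351 to 0.0702 for Pkm, -0.0974 to 0.0761 for Mpc1 and -0.13 to 0.0172 for the other Aldoa row. Replicate numbers are shared between the groups, but same-numbered libraries did not deviate together (correlations -0.03 to 0.06). With the replicate block, 2968 genes, 9 members and 25 related genes were called, and Gapdh, Pgk1, Pgam2 and Pdha1 had an adjusted p of 0.0793, 0.0633, 0.103 and 0.0677. The causes were not tested. Depth limits Aldoc and the other Aldoa row, at 0 to 6 fragments.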
